A study of Mus musculus with 8 samples.

Results

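Gene expression at the mouse implantation site was set against that of the blastocyst on 6 of the 8 arrays of the series: 2 of implantation sites and 4 of blastocysts. The arrays were chosen by stage as the sample labels give it, and the mature oocytes of the series entered neither side. The blastocysts were 2 samples labelled KO and 2 labelled WT, and the implantation sites were 1 KO and 1 WT. KO stands for loss of Gja1, the gene of the gap junction protein connexin 43, which the series title places in the oocyte. The labels name no deleted exon, Cre driver, strain, day of pregnancy, parity or number of pooled embryos, and they do not say which cells of an implantation site carry the deletion. They call the implantation site material an embryo, and they give polyadenylated RNA. The series asks how the KO differs from the WT at each stage; the same arrays also show what separates the stages, with genotype as a covariate.

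At the blastocyst stage the embryo consists of an outer epithelium, the trophectoderm, and an inner cell mass that gives rise to the epiblast and the primitive endoderm. The trophectoderm pumps fluid into the blastocoel and attaches the embryo to the uterine epithelium. Around the attached embryo the uterine stroma, primed by progesterone and oestrogen, turns into decidua, a tissue that grows, couples its cells through gap junctions, remodels its matrix and takes in blood vessels and leukocytes.

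Each array read 45101 probe sets, of which 34945 matched a single gene, and 11456 genes remained after dim probe sets were removed. The median signal was 170 to 220 in blastocysts and 134 and 178 at the implantation site. Bacillus control probe sets, which match no mouse gene, gave the background level: the brightest of 27 read 535, 560, 322 and 345 on the blastocyst arrays KO 1, KO 2, WT 1 and WT 2, and 131 and 174 on the implantation site arrays KO and WT. The 3'/5' signal ratio of Actb, a measure of RNA integrity that rises as RNA is degraded or amplified, was 25.7 to 69.3 in blastocysts and 27.9 and 21.2 at the implantation site. That of Gapdh was 7.27 to 11.8 and 7.46 and 7.21. The ratio of 3' to middle signal of Gapdh was 4.81 to 8.48 and 2.50 and 2.90, so RNA quality differed with stage, and its part in the differences below was not tested. Across the genes tested, pairs of blastocyst arrays had correlations of 0.80 to 0.89 and the implantation site pair 0.92, against 0.42 to 0.56 for pairs of arrays from different stages. Gja1, the targeted gene, did not follow the labels throughout: it read 375 and 553 in the blastocysts labelled KO and 9835 and 574 in those labelled WT, and 28105 and 44493 at the implantation sites labelled KO and WT. KO and WT therefore stand for the labels below. No label says that arrays of a stage came from separate animals, so the p-values measure the spread between these arrays, and with 1 implantation site array per genotype the number of arrays limits every statement.

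In each sentence below, blastocyst signals are given for KO 1, KO 2, WT 1 and WT 2 in that order, and implantation site signals for KO and then WT. Differences are log2 implantation site minus blastocyst with the standard error (SE) of the limma fit, and p-values are adjusted over the 11456 genes by Benjamini and Hochberg. A gene passed at an adjusted p under 0.05. Where any array of the dimmer stage was at or below its background level, such arrays were raised to it. The fold is then a lower bound ("at least") for the brightest probe set of the gene, which stands for it. The log2 difference beside such a fold is the value of the fit on the signals as deposited and is no bound. Because the filter averages the stages, a gene can be kept through the stage in which it is bright.

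The implantation site differed from the blastocyst in genes of both directions. By limma, 2095 of 11456 genes were higher at the implantation site (18.3%) and 2347 were lower (20.5%). At an unadjusted p under 0.05 the counts were 2555 and 3015. The median change was 4.63-fold among the higher genes and 4.08-fold among the lower ones, and 651 higher and 438 lower genes changed at least 8-fold. With arrays of the dimmer stage raised to background these medians were 3.06 and 3.46 and the counts 253 and 241. Of the higher genes, 2088 (99.7%) had stages that did not overlap on any array, and of the lower ones 2282 (97.2%). The choice of these genes by the same contrast largely fixes this. Over all genes tested, these included, the share was 56.6%. In 712 of the higher genes (34.0%) all 4 blastocyst arrays were at background, and in 590 more some of them were. The first held for the implantation site in 405 of the lower genes (17.3%) and the second in 471. The background level was 322 to 560 on blastocyst arrays and 131 and 174 at the implantation site. These counts therefore cannot be compared between directions, and the shares over all genes are not given. The balance of directions depends on the scaling: 47.2% of the genes that passed were higher with the deposited scaling, 49.9% after quantile normalization, 61.1% after scaling to a common median (2495 higher and 1586 lower), which moves the median of all genes by 0.36 on the log2 scale, and 30.9% with signals floored at background (2045 higher and 4578 lower), which moves it by -0.43. The WT implantation site array set against the WT blastocysts gave a median log2 difference of -0.06 over all genes, against -0.18 in the main fit. Leaving out the KO implantation site array gives the same differences, because genotype is in the fit, and only the spread is estimated otherwise. In both settings fewer genes passed in each direction.

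**Figure D1:**
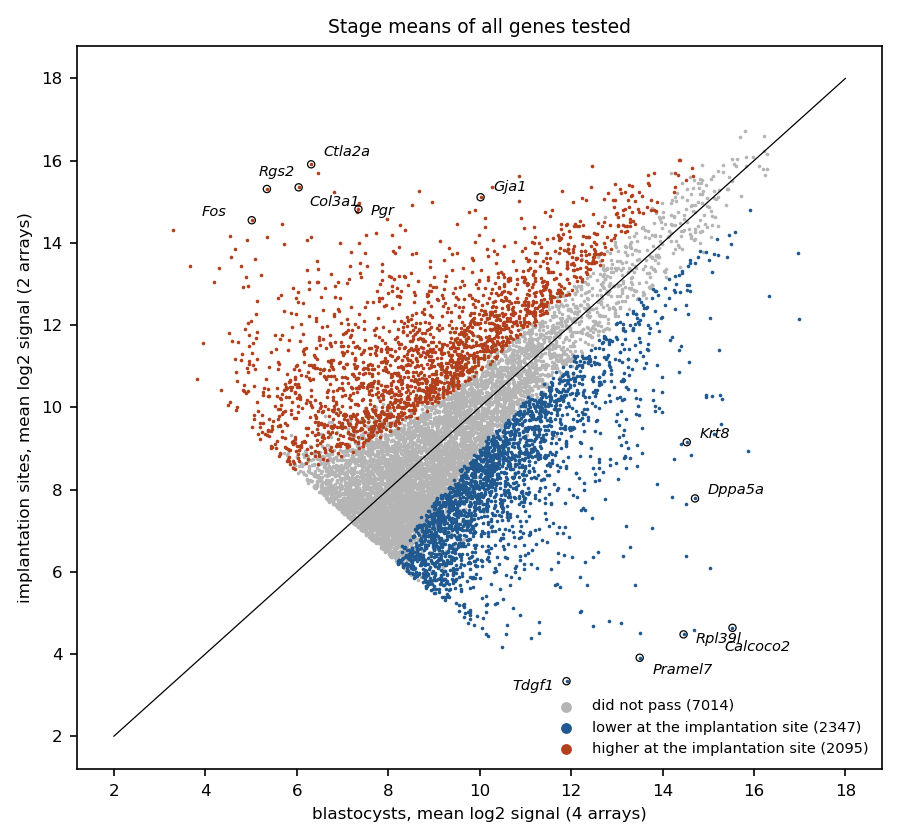
Mean log2 signal of each gene tested in the 4 blastocyst arrays (x axis) and the 2 implantation site arrays (y axis), with equal means on the diagonal line. Genes higher at the implantation site (2095, limma adjusted p under 0.05) are red, genes lower there (2347) blue, and circles mark named genes; the empty lower left corner is the filter on dim genes.

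The genes with the largest measured gain at the implantation site included enzymes, signalling proteins, collagens and the progesterone receptor. Ctla2a, a cysteine protease inhibitor, read 229, 60.5, 125 and 23.2 in blastocysts and 66551 and 57256 at the implantation site, at least 144-fold higher (log2 9.60, SE 0.71, limma adjusted p = 2.01e-05). Tgm2, the tissue transglutaminase that cross-links matrix proteins, read 159, 188, 49.2 and 42.2 against 62620 and 44804, at least 124-fold higher (log2 9.22, SE 0.42, limma adjusted p = 1.78e-06). Rgs2, which shortens signalling by G proteins, read 45.9, 36.4, 52.1 and 31.6 against 49396 and 33412, at least 95.1-fold higher (log2 9.96, SE 0.47, limma adjusted p = 1.82e-06). All 4 blastocyst arrays were at background for these genes and both implantation site arrays read 33412 or more. Ctla2a has a near-identical neighbour, Ctla2b, whose RNA the probes may share. The other genes that the rule for leading genes named in this direction were Col3a1, Col1a1, Snai2, Mylk, Col6a2, Pgr, Dpysl2, Clu, Marveld1, Selenop, Fos and Sh3bgrl. Selenop, the secreted selenium carrier, read 310, 304, 182 and 227 against 26219 and 22834, at least 57.3-fold higher. Marveld1 was at least 64.2-fold higher by its brightest probe set, but without probe sets whose suffix marks possible cross-hybridization the difference was -1.51 on the log2 scale.

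The genes with the largest measured loss included genes known from preimplantation embryos and pluripotent cells. Calcoco2, an autophagy receptor, read 47459, 45551, 60794 and 38184 in blastocysts against 26.8 and 23.0 at the implantation site, at least 314-fold lower (log2 -10.89, SE 0.29, limma adjusted p = 1e-07). Bhmt, betaine-homocysteine methyltransferase, which feeds the methionine cycle, read 21834, 35462, 56317 and 28919 against 27.4 and 170, at least 222-fold lower (log2 -8.94, SE 0.48, limma adjusted p = 3.59e-06). Crxos, a homeobox gene of the preimplantation embryo, read 21828, 24461, 37925 and 24276 against 13 and 44.2, at least 176-fold lower (log2 -10.11, SE 0.37, limma adjusted p = 5.96e-07). The implantation site arrays were at background for all of them. The rest of the leading genes in this direction were Dppa2, Rpl39l, Nrip2, Dppa5a, Kbtbd13, Pramel7, Pramel6, Timd2, Tdrp, Sall4, Vnn1 and Khdc3. Vnn1, a pantetheinase that releases vitamin B5, read 9516, 6486, 13414 and 9439 against 132 and 144, at least 62.0-fold lower. Kbtbd13 varied widely among blastocysts, at 66036, 62691, 1437 and 21895, but did not overlap with the 139 and 364 of the implantation site.

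RefSeq promoters (build GRCm38.p6) were read for the leading genes of each direction. The 250 bases before the start are printed for Ctla2a and Bhmt, the first gene of each direction with an entry, and for Fos, chosen after its values were seen because, of the leading genes with an entry, it alone has TATAAA between 45 and 16 bases before the start. Capitals mark TATAAA and every CG. Ctla2a, upstream of the farther of its 2 annotated starts, lies at chr13:60936626-60936875 on the minus strand, Fos at chr12:85473640-85473889 on the plus strand and Bhmt at chr13:93637759-93638008 on the minus strand.
Ctla2a: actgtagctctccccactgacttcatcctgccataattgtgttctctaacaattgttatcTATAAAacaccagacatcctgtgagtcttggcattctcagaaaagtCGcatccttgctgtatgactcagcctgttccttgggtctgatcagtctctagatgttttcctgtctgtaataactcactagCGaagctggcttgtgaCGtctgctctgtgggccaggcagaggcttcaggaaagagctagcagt
Fos: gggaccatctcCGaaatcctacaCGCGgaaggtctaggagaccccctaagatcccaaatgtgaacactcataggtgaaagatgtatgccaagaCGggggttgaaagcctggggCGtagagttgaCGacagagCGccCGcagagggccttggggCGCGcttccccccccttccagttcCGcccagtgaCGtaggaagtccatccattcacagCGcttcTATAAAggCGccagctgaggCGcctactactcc
Bhmt: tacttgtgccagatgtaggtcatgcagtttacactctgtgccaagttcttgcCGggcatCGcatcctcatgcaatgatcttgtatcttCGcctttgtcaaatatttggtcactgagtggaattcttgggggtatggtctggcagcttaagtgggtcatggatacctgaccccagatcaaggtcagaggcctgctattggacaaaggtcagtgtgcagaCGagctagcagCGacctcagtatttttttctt
TATAAA begins 33 bases before the start in Fos and 190 bases before it in Ctla2a, and these letters are not in the printed Bhmt stretch. The printed stretches hold 3 CG in Ctla2a, 15 in Fos and 5 in Bhmt.

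Over the genes with 1 promoter entry, the stretch from 250 bases before to 50 after the start was searched for TATAAA on both strands. It was found in 8.55% of 1286 higher genes, 7.33% of 1528 lower genes and 7.79% of all 7357 genes tested with 1 entry. On the coding strand, from 45 to 16 bases before the start, the shares were 2.72%, 1.64% and 1.77%, and among genes changed at least 8-fold by the fit 4.99% of 381 higher and 1.89% of 264 lower. The ratio of observed to expected CG was at least 0.6 in 72.6% of all these promoters, in 60.1% of those higher at least 8-fold and in 55.3% of those lower at least 8-fold. So CG-poor promoters made up a larger share of the strongly changed genes of both directions than of all genes tested. Among all higher genes the share with a ratio of at least 0.6 was 77.0%, the other way, and among all lower genes it was 69.9%. The shares are descriptions without a test.

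Genes of the uterine stroma rose at the implantation site. The decidual stroma list, made of regulators and products of the progesterone-primed stroma, had 15 of its 27 tested members higher and 4 lower, with a median log2 difference of 3.45 against -0.18 over all genes. With signals floored at background the medians were 1.51 and -0.61. Without the KO implantation site array 15 were higher and 2 lower. Pgr, the progesterone receptor, read 139, 134, 192 and 198 in blastocysts and 30636 and 27384 at the implantation site, at least 67.8-fold higher (log2 7.47, SE 0.34, limma adjusted p = 1.78e-06). Hand2, a transcription factor of the stroma induced by progesterone, read 68.3, 20.3, 82.4 and 271 against 18803 and 15722, at least 40.3-fold higher (log2 7.85, SE 0.73, limma adjusted p = 6.87e-05). Both receptor and factor were at background on every blastocyst array. Snai2, a zinc finger repressor of mesenchymal cells, read 566, 399, 361 and 350 against 46980 and 32616, at least 87.5-fold higher (log2 6.57, SE 0.29, limma adjusted p = 1.78e-06). Igfbp4, which binds insulin-like growth factors, read 103, 125, 177 and 98.8 against 18642 and 14251, at least 38.2-fold higher. Tdo2, a tryptophan-degrading enzyme used as a decidual marker, read 133, 309, 85.6 and 56.8 against 4916 and 5744, at least 12.4-fold higher. For each of these genes both implantation site arrays lay above all 4 blastocyst arrays.

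Other decidual genes did not pass or fell. Hoxa10, a homeobox gene required for decidualization, was at least 7.88-fold higher, at 3532 and 3207, whereas its neighbour Hoxa11 read 295, 323, 158 and 457 against 531 and 1296 and did not pass (log2 1.53, SE 0.58, limma adjusted p = 0.0613). Cryab, a small heat shock protein, read 2352, 1536, 2167 and 1411 against 3828 and 2598 and did not pass either (limma adjusted p = 0.0813). The lower members were Wnt6, Foxo1, Alpl and Tcf21; Foxo1, a factor of the differentiated decidua, read 3306, 3440, 2684 and 2546 against 581 and 1138, 3.65-fold lower, though its probe sets without suffix gave -0.46 on the log2 scale and did not pass. Prl8a2, a prolactin family hormone of mature decidua, read 165, 295, 188 and 624 against 217 and 211, with no difference past the threshold (log2 -0.36, SE 0.67, limma adjusted p = 0.696). Prl3c1, another member of that family, was too dim for the filter, at 22.3, 58.5, 10.9 and 162 against 412 and 489; without the filter it was higher (log2 3.53, limma adjusted p = 0.0416).

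The fibroblast matrix and smooth muscle lists had the highest median differences of the 35 lists. Of the fibroblast matrix list, 23 of 28 tested members were higher and none lower, with a median log2 difference of 4.20 (2.96 floored); its summed signal was 8838 to 11866 in blastocysts and 263192 and 223975 at the implantation site. Col3a1, a fibrillar collagen chain, read 106, 156, 29.1 and 38.9 against 47005 and 37300, at least 98.0-fold higher (log2 9.31, SE 0.48, limma adjusted p = 2.44e-06). Col1a1, a chain of type I collagen, read at most 345 in blastocysts (WT 2, level with its background, the others below theirs) against 39380 and 38262, at least 90.9-fold higher. Col6a2, a chain of the microfibrillar type VI collagen, read 356, 136, 95.4 and 152 against 38601 and 25146, at least 73.0-fold higher. Its other bright probe set gave 1.55 on the log2 scale. By their brightest probe sets the collagens were thus at or near background in blastocysts and far above it on both implantation site arrays. Timp1, an inhibitor of matrix metalloproteinases, read 596, 1038, 650 and 1093 against 356 and 451 and did not pass (log2 -1.02, SE 0.42, limma adjusted p = 0.0799), and neither did Fbln1, a basement membrane protein (limma adjusted p = 0.168).

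Of the smooth muscle list, which marks the myometrium and vessel walls, 9 of 12 were higher and none lower (median log2 5.09, 2.77 floored). Mylk, the myosin light chain kinase of smooth muscle, read 195, 338, 70.9 and 157 against 31763 and 32433, at least 75.2-fold higher (log2 7.61, SE 0.47, limma adjusted p = 7.3e-06). Its other bright probe set gave 1.26 on the log2 scale. Cald1, the actin-binding caldesmon, read 391, 435, 298 and 230 against 24123 and 17327, at least 47.9-fold higher. Synpo2, an actin-bundling protein of muscle, read 130, 91.3, 201 and 70.6 against 6446 and 9648, at least 18.5-fold higher. By their brightest probe sets these contractile genes were at background on all blastocyst arrays and far above it in both implantation site samples. Tpm2, a tropomyosin, read 1001, 1241, 1109 and 591 against 34364 and 24103 by its brightest probe set, whereas probe sets without a suffix put it at -2.13 on the log2 scale. Des, the intermediate filament of muscle, read 301, 415, 339 and 39.6 against 682 and 469 and did not pass (limma adjusted p = 0.177). Summed over the list, smooth muscle signals were 3935 to 7902 in blastocysts and 123160 and 121088 at the implantation site.

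Genes of the uterine epithelium went both ways. Of 16 tested members, 7 were higher and 4 lower, and the list's median of 0.63 turned to -0.68 when signals were floored at background. Spink1, a secreted trypsin inhibitor, read 270, 251, 31.0 and 19.4 against 20483 and 16166, at least 42.6-fold higher (log2 7.83, SE 0.65, limma adjusted p = 3.52e-05). Prss28, an implantation serine proteinase of uterine glands, read 102, 34.2, 17.0 and 11.1 against 6271 and 9670, at least 18.2-fold higher (log2 8.09, SE 0.85, limma adjusted p = 0.000126). Its partner Prss29 read 387, 72.1, 201 and 536 against 7480 and 5602, at least 13.6-fold higher. The secretory proteases and their inhibitor were thus far above background at the implantation site and at or near it in blastocysts. Clu, the secreted chaperone clusterin, read 627, 565, 325 and 515 against 27299 and 38557, 65.7-fold higher. The lower members Msx1, Wfdc2, Epcam and Fxyd4 include genes that the trophectoderm also expresses, such as Epcam.

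Endothelial genes changed in few members. Of 18 tested, 3 were higher, near the 18.3% of all genes, and none lower; without the KO implantation site array 1 was higher. Mmrn2, a matrix protein of endothelium, read 460, 330, 248 and 121 against 9233 and 9456, at least 21.9-fold higher (log2 5.17, SE 0.44, limma adjusted p = 4.02e-05), but the mean of its probe sets differed by 1.23 on the log2 scale and did not pass. Cd34, a sialomucin of small vessels, read 105, 30.4, 49.7 and 55.2 against 1769 and 1167, at least 3.36-fold higher. Flt1, a VEGF receptor, read 186, 79.8, 44.9 and 85.0 against 725 and 488, at least 1.39-fold higher, and without either implantation site array it did not pass (2.57 and 2.98 on the log2 scale). Sox17, a transcription factor of arteries and also of primitive endoderm, was already bright in blastocysts, at 696, 1553, 2854 and 3249 against 4243 and 2872, and did not pass (limma adjusted p = 0.142). Kdr, the main VEGF receptor, read 53.9, 552, 161 and 102 against 820 and 493 and did not pass (limma adjusted p = 0.0843).

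Myeloid genes were higher in 9 of 13 tested members, with a median log2 difference of 2.82 (2.32 floored), and in 5 without the KO implantation site array. Ptprc, the pan-leukocyte phosphatase CD45, read 120, 46.7, 28.5 and 3.00 against 3687 and 2558, at least 7.19-fold higher (log2 6.86, SE 1.13, limma adjusted p = 0.00136). Ctss, the lysosomal protease cathepsin S of antigen-presenting cells, read 223, 201, 276 and 87.2 against 5812 and 5214, at least 12.9-fold higher. C1qb, a complement chain made by macrophages, read 21.9, 97.8, 92.2 and 28.1 against 2065 and 2189, at least 4.98-fold higher. Ptprc, Ctss and C1qb were at background on all blastocyst arrays. S100a8, a neutrophil protein, differed between the implantation site arrays, at 8258 and 1209, and was at least 7.4-fold higher; without the KO array it did not pass (log2 2.32). Laptm5 read 2288, 2219, 2490 and 2311 against 21153 and 12741 by its brightest probe set, but the probe set without suffix gave -5.35 on the log2 scale. Adgre1, the macrophage antigen F4/80, was above background on all 4 blastocyst arrays and did not pass, at 2912, 1087, 707 and 711 against 437 and 965 (limma adjusted p = 0.305).

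Markers of natural killer cells, the main leukocytes of the decidua, changed in both directions. Their median log2 difference was 1.63, but -0.60 with signals floored at background, where that of all genes was -0.61. Gzma, a cytotoxic granule protease, read 111, 238, 178 and 299 against 1865 and 715, at least 2.70-fold higher (log2 2.58, SE 0.61, limma adjusted p = 0.00911). Klrd1, the lectin receptor CD94, read 258, 248, 167 and 149 against 997 and 751, at least 2.03-fold higher. Prf1, perforin, did not pass, at 492, 146, 141 and 118 against 145 and 271 (limma adjusted p = 0.933). In all, 4 of 9 tested members were higher and 2 lower; the lower ones were Il2rb and Eomes, of which Eomes is also a trophectoderm factor. Without the implantation site KO array 0 of the 9 were higher by limma, and Gzma differed by 1.63 on the log2 scale. Erythroid genes gave little signal at the implantation site: 7 of 12 measured members were below it on both arrays, and Hba-a2, an alpha globin, read 139, 120, 372 and 146 against 295 and 194 (limma adjusted p = 0.638).

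The label of the implantation site samples names an embryo, and their markers were set against that. Markers of trophoblast giant cells and the ectoplacental cone, which form where the embryo implants, were dim in most cases: 13 of 23 measured members were at background on both implantation site arrays and only 8 were bright enough to test. Of these, Plac8, Adm and Cited2 were higher and Plac1 lower. Plac8 read 372, 497, 368 and 340 against 16916 and 11446, at least 31.5-fold higher, and Adm, the vasodilator adrenomedullin, read 444, 212, 234 and 35.9 against 11891 and 8171, at least 23.1-fold higher. Plac1, a trophoblast gene, read 1500, 714, 1259 and 980 against 271 and 351, 3.48-fold lower, but not without the KO implantation site array (log2 -1.66). For epiblast and gastrulation, 17 of 25 measured members were at background on both implantation site arrays. Fst, follistatin, which the decidua also makes, was at least 15.8-fold higher, at 9054 and 5058, while Tdgf1, a Nodal co-receptor, read 2940, 3246, 5849 and 3786 against 8.40 and 12.1, at least 25.3-fold lower. By contrast 26 of 30 measured stromal genes and 29 of 29 matrix genes were above background on both implantation site arrays. For the uterine epithelium this held for 16 of 22, for the trophectoderm list for 18 of 30 and for primitive and visceral endoderm for 16 of 27. The share over all measured genes is not given here, so these counts only set the lists beside each other. In bulk samples, fewer cells of a type and less RNA per cell cannot be told apart, so each loss of an embryonic gene below may be either.

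**Figure D2:**
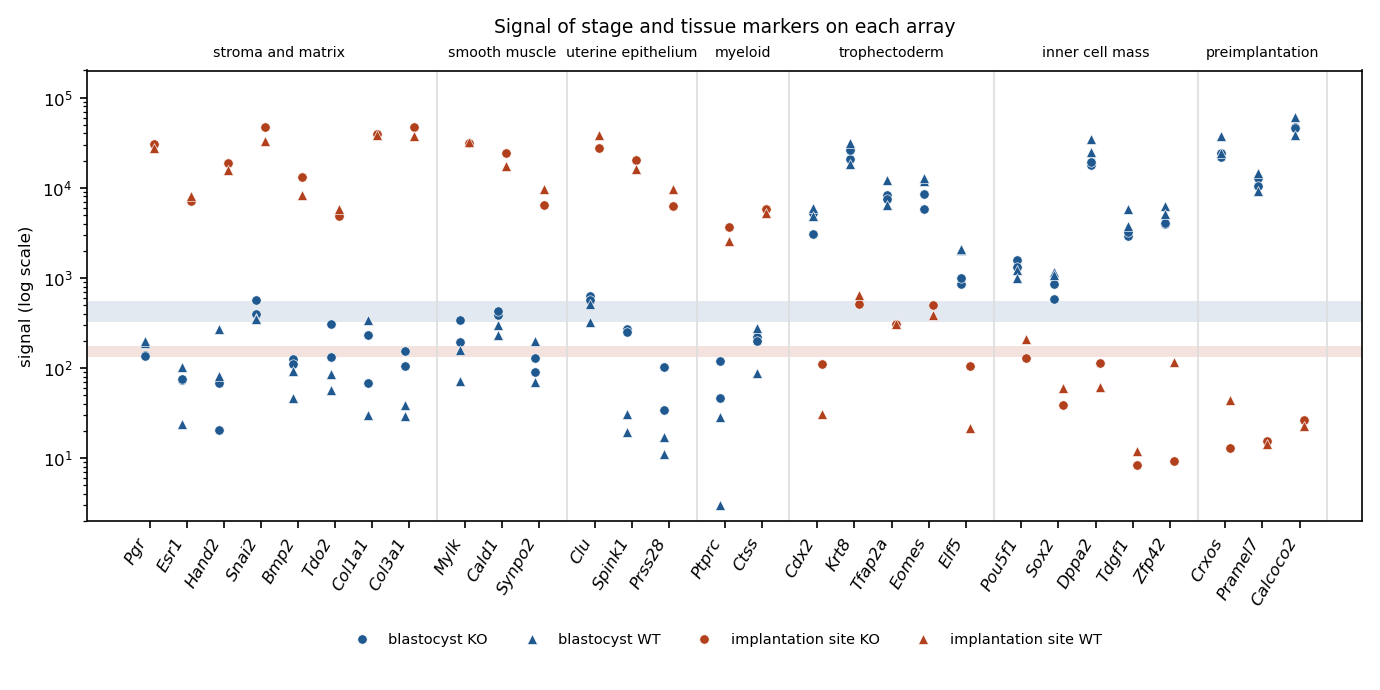
Signal on each array (log scale) of uterine genes and of blastocyst genes, with blastocyst arrays in blue and implantation site arrays in red, KO as circles and WT as triangles. The shaded bands span the background level of the blastocyst arrays (322 to 560) and of the implantation site arrays (131 to 174); uterine genes lie far above their band only at the implantation site, and blastocyst genes only in blastocysts, apart from Krt8, Tfap2a, Eomes and 1 Pou5f1 value, which stayed above it at the implantation site.

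Trophectoderm genes fell in most members. Of 26 tested members 21 were lower and 1 higher, with a median log2 difference of -3.37 (-2.76 floored). Cdx2, the homeobox factor that specifies trophectoderm, read 5258, 3084, 5980 and 4853 in blastocysts and 111 and 31.1 at the implantation site, at least 30.9-fold lower (log2 -6.31, SE 0.50, limma adjusted p = 2.96e-05). Eomes, which maintains trophoblast stem cells, read 8571, 5812, 11794 and 12791 against 497 and 389, 21.2-fold lower (log2 -4.41, SE 0.34, limma adjusted p = 2.45e-05). Tfap2a, an AP-2 transcription factor, read 8381, 7594, 12078 and 6438 against 306 and 309, 27.3-fold lower. Of these factors Cdx2 was at background at the implantation site, while Eomes and Tfap2a kept a signal above it. Krt8, the simple epithelial keratin of trophectoderm and of uterine epithelium, read 20981, 25955, 31714 and 18125 against 507 and 638, 41.6-fold lower, and its partner Krt18 read 9074, 9768, 6894 and 6883 against 288 and 551, 20.2-fold lower. Fabp3, a fatty acid carrier, read 5799, 4882, 5196 and 3787 against 161 and 216, 26.0-fold lower.

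Other members of the list stood apart. Gata2, a trophoblast factor that the uterus also uses, read 1572, 1751, 1004 and 1021 against 2657 and 2163, 1.85-fold higher (log2 0.89, SE 0.29, limma adjusted p = 0.0361). That call was lost without any 1 of the 6 arrays (0.68 to 1.10 on the log2 scale), and the mean of its probe sets gave -0.08. Gata3 was dim, at 691, 734, 670 and 668 against 24.8 and 29.0, and lower in the fit without the filter (log2 -4.68, limma adjusted p = 0.000258). Tead4, the Hippo pathway factor upstream of Cdx2, was likewise too dim for the filter, at 834, 1519, 1297 and 1007 against 8.40 and 38.5 (log2 -5.98, limma adjusted p = 8.22e-05 without the filter). Both dim factors were at background at the implantation site. Ndrg1, a stress-induced protein, was far above background in both stages, at 12106, 8434, 20175 and 19050 against 10228 and 15951, and did not pass (log2 -0.14, SE 0.30, limma adjusted p = 0.74). Dab2, an endocytic adaptor, was 14-fold lower by its brightest probe set but 0.95 higher on the log2 scale by the probe set without suffix.

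Pluripotency genes fell in 19 of 24 tested members, and none was higher (median log2 -3.81, -2.75 floored). Dppa2, a chromatin protein of pluripotent cells, read 17941, 19147, 34689 and 24699 against 114 and 61.3, at least 154-fold lower (log2 -8.12, SE 0.37, limma adjusted p = 1.81e-06). Sall4, a zinc finger factor, read 7412, 8121, 16911 and 12880 against 158 and 16.7, at least 64.5-fold lower. Fbxo15, a target of Oct4, read 7806, 7021, 12359 and 8878 against 59.0 and 12.4, at least 58.4-fold lower. The blastocyst values of these genes stood far above those of the implantation site in both genotypes. Pou5f1, which codes for Oct4, read 1598, 1315, 1215 and 997 against 130 and 210, at least 7.61-fold lower (log2 -2.93, SE 0.41, limma adjusted p = 0.000567). Sox2 read 585, 847, 1177 and 1072 against 39.3 and 60.2, at least 5.89-fold lower. Nanog, below the filter, read 1317, 1740, 2467 and 1626 against 4.90 and 10.6, at least 11.5-fold lower (log2 -7.91, limma adjusted p = 5.2e-06 without the filter).

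Of the 5 tested pluripotency genes that did not pass, Klf4 and Tbx3 were the brightest. Klf4 read 2889, 2552, 7958 and 4484 against 2502 and 6151 (log2 -0.04, SE 0.31, limma adjusted p = 0.931), and Tbx3 read 1230, 1237, 2682 and 2492 against 1964 and 1788 (log2 0.07, SE 0.34, limma adjusted p = 0.885). Their stages overlapped, unlike those of the members above.

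Primitive endoderm genes divided. Of 21 tested, 6 were higher (28.6%) and 7 lower (33.3%), against 18.3% and 20.5% of all genes. The median of 0.97 changed sign with the filter over 8 arrays (-0.92) and within the WT arrays (-0.08). Without the KO implantation site array 3 were higher and 5 lower. Pdgfra, a receptor of primitive endoderm and of fibroblasts, read 864, 956, 1529 and 1215 against 26657 and 16941, 19.1-fold higher (log2 4.25, SE 0.34, limma adjusted p = 2.91e-05). Gata6, the endoderm factor, read 973, 817, 840 and 1025 against 154 and 338, 3.98-fold lower, but not without the KO implantation site array (log2 -1.46). Lrpap1, a chaperone of endocytic receptors, read 37441, 38350, 46322 and 33075 against 3230 and 2271, 14.2-fold lower. Pdgfra thus rose by its brightest probe set while the endoderm factor fell. The 2 other bright probe sets of Pdgfra gave 0.53 and 0.54 on the log2 scale. Ttr, the transthyretin carrier of visceral endoderm, read 556, 302, 50.7 and 19.8 against 8783 and 4915, at least 15.2-fold higher, whereas Afp, alpha-fetoprotein of the same tissue, read 1173, 1394, 400 and 669 against 44.4 and 28.0, at least 5.39-fold lower.

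Preimplantation-restricted genes were lower in 13 of 16 tested members, and their summed signal was 104786 to 155786 in blastocysts and 3040 and 3310 at the implantation site. Pramel7, a leucine-rich protein of the inner cell mass linked to low DNA methylation, read 12809, 10514, 14767 and 9181 against 15.7 and 14.4, at least 77.1-fold lower (log2 -9.60, SE 0.33, limma adjusted p = 5.06e-07). Its paralog Pramel6 read 11006, 10949, 15169 and 9890 against 76.9 and 6.8, at least 76.9-fold lower (log2 -8.98, SE 0.66, limma adjusted p = 1.94e-05). Both were at background at the implantation site, and as close paralogs they may share probes. Khdc3, a part of the subcortical maternal complex inherited from the oocyte, read 6890, 8452, 11481 and 9576 against 135 and 52.4, at least 58.5-fold lower. Zbed3 went the other way, at 235, 423, 190 and 400 against 847 and 892, at least 1.96-fold higher, a call lost without either implantation site array (1.43 and 1.70 on the log2 scale).

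The machinery of the blastocoel fell with the trophectoderm. Of the 25 tested transport and junction genes 20 were lower and 1 higher (median log2 -2.47, -2.31 floored). Cdh1, E-cadherin, read 6482, 5468, 7351 and 6043 against 718 and 254, 14.8-fold lower (log2 -3.88, SE 0.38, limma adjusted p = 9.1e-05). Cldn4, a tight junction claudin, read 3497, 2790, 1385 and 2889 against 143 and 318, 11.7-fold lower. Aqp9, a channel for water and small solutes, read 1479, 1318, 1544 and 1429 against 23.8 and 13.7, at least 9.55-fold lower. Cdh1, Cldn4 and Aqp9 thus lay above the implantation site on each of the 4 blastocyst arrays. Aqp11 split the blastocysts by genotype, at 16459, 19061, 1654 and 2016 against 264 and 509; its stage difference was -6.07 within KO and -1.84 within WT on the log2 scale, and the interaction did not pass (limma adjusted p = 0.107). Tjp1, the tight junction scaffold ZO-1, did not pass, at 2783, 2638, 5304 and 4908 against 6568 and 5875 (log2 0.74, SE 0.31, limma adjusted p = 0.0863). Atp1b1, the beta subunit of the sodium pump, read 4577, 5423, 9330 and 7486 against 4143 and 3935 and did not pass (limma adjusted p = 0.102). Atp1b3 was 1.79-fold higher, a call lost without any 1 of the 6 arrays (0.74 to 0.94 on the log2 scale).

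Connexin genes changed in both directions. Gja1 (connexin 43) read 375, 553, 9835 and 574 in blastocysts and 28105 and 44493 at the implantation site, at least 31.0-fold higher (log2 5.09, SE 0.90, limma adjusted p = 0.00198). The blastocyst labelled WT 1 stood apart from the other 3, which read 375 to 574. Leaving it out raised the log2 difference to 6.09. No label says whether the tissue sampled at the implantation site carries the deletion, or whether these probes lie in the deleted part. Of 5 other bright Gja1 probe sets, 4 differed in the same direction. Gjc1 (connexin 45), a connexin of muscle and vessels, read 18.6, 44.0, 211 and 95.2 against 5245 and 4710, at least 11.6-fold higher. Gjb5 (connexin 31.1), known from trophoblast, read 812, 252, 459 and 1311 against 88.6 and 29.3, at least 3.93-fold lower, but not without the WT implantation site array (log2 -2.35). Gjb2 (connexin 26) of the uterine epithelium read 325, 772, 394 and 518 against 870 and 1440 without passing (limma adjusted p = 0.0601).

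Steroid and prostaglandin genes that rose included receptors. Stromal, matrix, muscle and myeloid markers rose on the same arrays as these and the signalling genes that follow, and the part of cell makeup in them was not tested. Of 14 tested, 6 were higher and 2 lower, and 3 were higher without the KO implantation site array. Esr1, the oestrogen receptor alpha, read 73.7, 75.2, 23.7 and 102 against 7192 and 8057, at least 17.8-fold higher (log2 6.98, SE 0.66, limma adjusted p = 7.41e-05). Ptger4, a receptor for prostaglandin E2, read 243, 161, 44.4 and 129 against 6622 and 6199, at least 15-fold higher. Ptger2, another receptor for prostaglandin E2, was removed by the filter, at 9.90, 8.30, 15.2 and 9.60 against 1136 and 1400 (log2 6.91, limma adjusted p = 0.000359 without the filter). Esr1, Ptger4 and Ptger2 were thus at background in blastocysts and above it at the implantation site. Other receptors were not: Esr2, the oestrogen receptor beta, read 103, 26.4, 59.8 and 23.9 against 6.40 and 18.5, at background throughout, and the prostaglandin F receptor Ptgfr read 230, 193, 28.6 and 368 against 85.3 and 226. Ptges, the synthase of prostaglandin E2, went the other way, at 3455, 3904, 1876 and 2319 against 233 and 128, at least 13.8-fold lower (log2 -4.0, SE 0.31, limma adjusted p = 2.72e-05). Fkbp4, a chaperone of the progesterone receptor, read 888, 1678, 1314 and 975 against 827 and 910 and did not pass (limma adjusted p = 0.368).

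In the BMP and TGF-beta pathway, 16 of 34 tested members were higher and 3 lower; without the KO implantation site array 10 were higher. Bmp2, a ligand required for decidualization, read 125, 112, 46.6 and 93.2 against 13285 and 8357, at least 24.7-fold higher (log2 6.90, SE 0.47, limma adjusted p = 1.18e-05). Tgfbr3, a co-receptor, read 103, 19.7, 45.2 and 14.2 against 12029 and 12993, at least 29.3-fold higher by its brightest probe set. Its other bright probe set gave -1.13 on the log2 scale. Smad1, the signal transducer of BMP, read 353, 389, 356 and 170 against 22066 and 10627, at least 35.0-fold higher. By their brightest probe sets ligand, co-receptor and transducer were thus all higher. The receptor Bmpr1a did not pass, at 1954, 1928, 3114 and 3277 against 2436 and 3358 (log2 0.20, SE 0.27, limma adjusted p = 0.579). Fstl1, a secreted follistatin-like protein, read 36.4, 7.60, 60.6 and 49.5 against 17090 and 17457, at least 40.4-fold higher. Among the lower members were Gdf3, of the pluripotent embryo, and Id2, of the trophectoderm.

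Of 29 tested Wnt pathway members 10 were higher (34.5%, against 18.3% of all genes) and 5 lower (17.2%, against 20.5%), with 2 lower without the KO implantation site array. The ligand Wnt5a read 132, 49.5, 132 and 74.6 against 2836 and 4032, at least 7.92-fold higher (log2 5.24, SE 0.60, limma adjusted p = 0.000185), and Wnt7b read 1140, 1077, 671 and 787 against 152 and 396, 3.65-fold lower, but not without the KO implantation site array (log2 -0.88). Among Frizzled receptors, Fzd2 read 283, 374, 170 and 138 against 6839 and 5575, at least 14.5-fold higher. Fzd10 read 3651, 5699, 699 and 1540 against 76.7 and 353, at least 10.1-fold lower, but not without that array (log2 -1.55). So ligands and receptors changed in both directions. Sfrp2, a secreted antagonist, read 17.6, 60.5, 24.1 and 58.0 against 3868 and 3485, at least 8.6-fold higher, and Wnt4, a decidual ligand, read 166, 211, 83.2 and 323 against 385 and 432 without passing (limma adjusted p = 0.19).

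In the insulin-like growth factor axis Igf1 rose and Igf2 fell. Igf1, the growth factor made by stroma under oestrogen, read 649, 1178, 225 and 393 against 11550 and 7369, at least 16.5-fold higher (log2 4.18, SE 0.40, limma adjusted p = 7.75e-05). Igf2, the growth factor of the early embryo, read 928, 733, 722 and 1235 against 113 and 39.2, at least 5.85-fold lower (log2 -3.73, SE 0.56, limma adjusted p = 0.000815). Igfbp3, a binding protein, read 38.7, 66.1, 58.4 and 110 against 6972 and 5966, at least 15.1-fold higher. Ligands of the pair therefore changed in opposite directions. Of the RNA-binding proteins that stabilize Igf2 and other messages, Igf2bp1 was at least 26.4-fold lower and Igf2bp3 19.3-fold lower. In all, 9 of 15 tested members were higher and 4 lower, and Igfbp2 did not pass (limma adjusted p = 0.211).

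Immediate early genes, which cells induce within minutes of a stimulus, were higher in 15 of 21 tested members and in 9 without the KO implantation site array. Fos, a subunit of AP-1, read 46.5, 25.2, 50.9 and 18.4 against 18318 and 31271, at least 56.0-fold higher (log2 9.53, SE 0.63, limma adjusted p = 1.07e-05). Egr1, a zinc finger factor, read 532, 397, 225 and 115 against 17405 and 20408, at least 44.1-fold higher (log2 6.12, SE 0.46, limma adjusted p = 2.23e-05). Ccn1, a secreted matricellular protein, read 401, 149, 383 and 316 against 6739 and 8533, at least 17.0-fold higher. These were at or near background in all 4 blastocyst arrays. Egr3 and Nr4a1 were lower instead, Egr3 at 944, 1711, 435 and 898 against 265 and 183, 4.04-fold, but not without the KO implantation site array (log2 -1.77). Jund, which most cells express constantly, read 6735, 7155, 9242 and 10736 against 15587 and 7416 and did not pass (limma adjusted p = 0.455).

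Complement and coagulation genes were higher in 10 of 19 tested members and lower in 1; 6 were higher without the KO and 5 without the WT implantation site array. F2r, the thrombin receptor, read 969, 2346, 1972 and 2695 against 64349 and 39212, 26.9-fold higher (log2 4.75, SE 0.43, limma adjusted p = 5.58e-05). C1s1, a complement protease, read 254, 171, 92.4 and 88.2 against 1702 and 1671, at least 3.95-fold higher. Plaur, the urokinase receptor, was the lower one, at 1653, 2711, 755 and 1502 against 263 and 276, 5.57-fold. Interferon and antigen presentation genes were higher in 8 of 20 and lower in none. Ifi35 read 482, 766, 887 and 786 against 7505 and 5729, at least 8.97-fold higher (log2 3.20, SE 0.34, limma adjusted p = 0.000139), and B2m, the light chain of class I molecules, read 1519, 1476, 1550 and 1732 against 8171 and 9899, 5.74-fold higher. Irf1 read 1797, 1573, 413 and 570 against 611 and 1237 with the KO blastocysts above the WT ones, and did not pass (limma adjusted p = 0.943).

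Among regulators of DNA methylation the de novo enzyme of the embryo fell and the maintenance enzyme rose. Dnmt3b, the de novo methyltransferase of the early embryo, read 11172, 17270, 16052 and 18892 against 1218 and 833, 15.4-fold lower (log2 -3.95, SE 0.32, limma adjusted p = 3.4e-05), and its cofactor Dnmt3l was at least 5.84-fold lower. Dnmt1, the maintenance enzyme, read 1520, 2182, 2495 and 2133 against 17327 and 13102, 7.35-fold higher (log2 2.88, SE 0.31, limma adjusted p = 0.000136). Its 2 other bright probe sets gave 0.37 and 2.51 on the log2 scale. Dnmt3a was at least 6.69-fold higher by its brightest probe set, but the mean of its probe sets differed by -0.09 and the probe set chosen over 8 arrays by -0.42. Trim28, a corepressor that protects imprints, read 7123, 11833, 19148 and 14369 against 2030 and 1952, 6.20-fold lower. Over the whole chromatin list 5 of 24 tested members were higher (20.8%, near the 18.3% of all genes) and 9 lower (37.5%, against 20.5%); 5 were lower under common median scaling, and 3 were higher without the KO implantation site array. Without the blastocyst KO 2, 5 were lower. Imprinted genes gave 6 higher and 4 lower of 16; Grb10, an adaptor that restrains growth, read 1728, 1866, 677 and 1204 against 14970 and 13598, 11.2-fold higher, and Sfmbt2, a trophoblast Polycomb gene, read 1222, 1279, 2245 and 1458 against 90.5 and 193, at least 9.46-fold lower.

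Cell cycle genes were near the shares of all genes, 18.3% higher and 20.5% lower. Of 39 tested members 6 were higher (15.4%) and 7 lower (17.9%), with a median of -0.13 that turned to 0.23 under common median scaling. Without the KO implantation site array 2 were higher, and without the WT one 4 were lower. Ccnd1, the G1 cyclin that stroma uses, read 215, 298, 666 and 399 against 8066 and 12110, at least 18.6-fold higher (log2 4.77, SE 0.36, limma adjusted p = 2.1e-05). Birc5, survivin, read 3820, 1736, 1567 and 1669 against 488 and 294, 5.39-fold lower, and Cdt1, a licensing factor of replication, was 3.56-fold lower but not without the WT implantation site array (log2 -1.18). Rrm2, the ribonucleotide reductase subunit of S phase, did not pass at an adjusted p under 0.05, at 18907, 23756, 35039 and 23405 against 65474 and 38242 (log2 1.02, SE 0.40, limma adjusted p = 0.0669).

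Hypoxia and glycolysis genes were near the shares of all genes (18.3% higher and 20.5% lower), with 6 higher and 6 lower of 26, or 23.1% each. Hif1a, the oxygen-regulated factor, read 1841, 2393, 3227 and 2020 against 24495 and 18590, 9.22-fold higher (log2 3.21, SE 0.32, limma adjusted p = 9.53e-05). Slc2a3, the glucose transporter of trophectoderm, read 13572, 11050, 20402 and 16474 against 2233 and 1918, 7.24-fold lower (log2 -2.86, SE 0.31, limma adjusted p = 0.000139). The ubiquitous glucose transporter Slc2a1 did not pass, at 4717, 4387, 5283 and 4780 against 7445 and 4430 (log2 0.26, SE 0.30, limma adjusted p = 0.506). In amino acid transport 5 of 21 were higher and 5 lower, 23.8% each and also near those shares; Slc15a2, a peptide transporter, read 37258, 25364, 38374 and 27930 against 1350 and 1091, 26.1-fold lower, whereas its probe set without suffix gave -0.64 on the log2 scale and did not pass. In cholesterol synthesis 2 of 20 were higher, among them the early enzyme Hmgcs1 (3.37-fold), and 5 lower, among them the late enzyme Dhcr7 (4.08-fold); without the KO implantation site array 1 was lower.

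Genes of ribosomes and translation, which the series title names, and of the proteasome were lower in part of their members, and most did not pass. Of cytosolic ribosomal protein genes 16 of 47 tested were lower and 3 higher (median log2 -0.46). This count is scale-dependent: 4 were lower after scaling to a common median and 25 after quantile normalization, and 10 without the WT implantation site array. Rpl39l, a paralog of Rpl39 known from germ cells and embryos, read 20882, 22324, 24716 and 22373 against 49.2 and 10.1, at least 149-fold lower (log2 -9.98, SE 0.47, limma adjusted p = 1.82e-06). Rpl38, which did not pass under common median scaling (log2 -1.40), read 42665, 48730, 46564 and 37446 against 14658 and 11352, 3.38-fold lower. Rps25 read 3817, 3946, 4159 and 3283 against 23065 and 21268, 5.85-fold higher. The family thus held changes in both directions beside members that did not pass, such as Rps18, at 74631, 82922, 88943 and 59655 against 91448 and 65690 (log2 0.03, SE 0.41, limma adjusted p = 0.952). Ribosomal protein genes have many processed copies, which probe sets can share.

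Mitochondrial ribosomal proteins were lower in 36 of 73 tested members and higher in 2 (median log2 -1.19), and 20 were lower under common median scaling, where the median was -0.83. Mrpl22, of the large subunit, read 8696, 10087, 15561 and 10604 against 1245 and 1135, 9.22-fold lower (log2 -3.21, SE 0.30, limma adjusted p = 7e-05). Mrpl51 read 7868, 6547, 10696 and 6994 against 9957 and 6306 and did not pass (limma adjusted p = 0.986). Among proteasome subunits 13 of 34 were lower and 1 higher, with 6 lower under common median scaling and 8 without the WT implantation site array; Psmb6, a catalytic subunit, read 9289, 9832, 13176 and 9678 against 2386 and 1625, 5.28-fold lower (log2 -2.40, SE 0.30, limma adjusted p = 0.00033). Translation factors gave 19 lower and 5 higher of 55, with 8 lower under common median scaling and also without the WT implantation site array; Eif4ebp1, the repressor of cap-dependent initiation, read 7244, 9925, 15106 and 8026 against 2250 and 856, 6.96-fold lower. Among ribosome biogenesis genes 15 of 61 were lower, near the 20.5% of all genes, and 7 without the KO implantation site array; Dkc1, the pseudouridine synthase, read 10124, 8204, 9945 and 8514 against 1780 and 1465, 5.67-fold lower by its brightest probe set, with differences of 0.03 and 0.50 on the log2 scale in the other 2 bright probe sets. Oxidative phosphorylation genes gave 24 lower and 6 higher of 74, and their median of -0.13 turned to 0.23 under common median scaling. Without the WT implantation site array 13 of these were lower and 13 higher, and without the blastocyst WT 1 13 were higher.

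**Figure D3:**
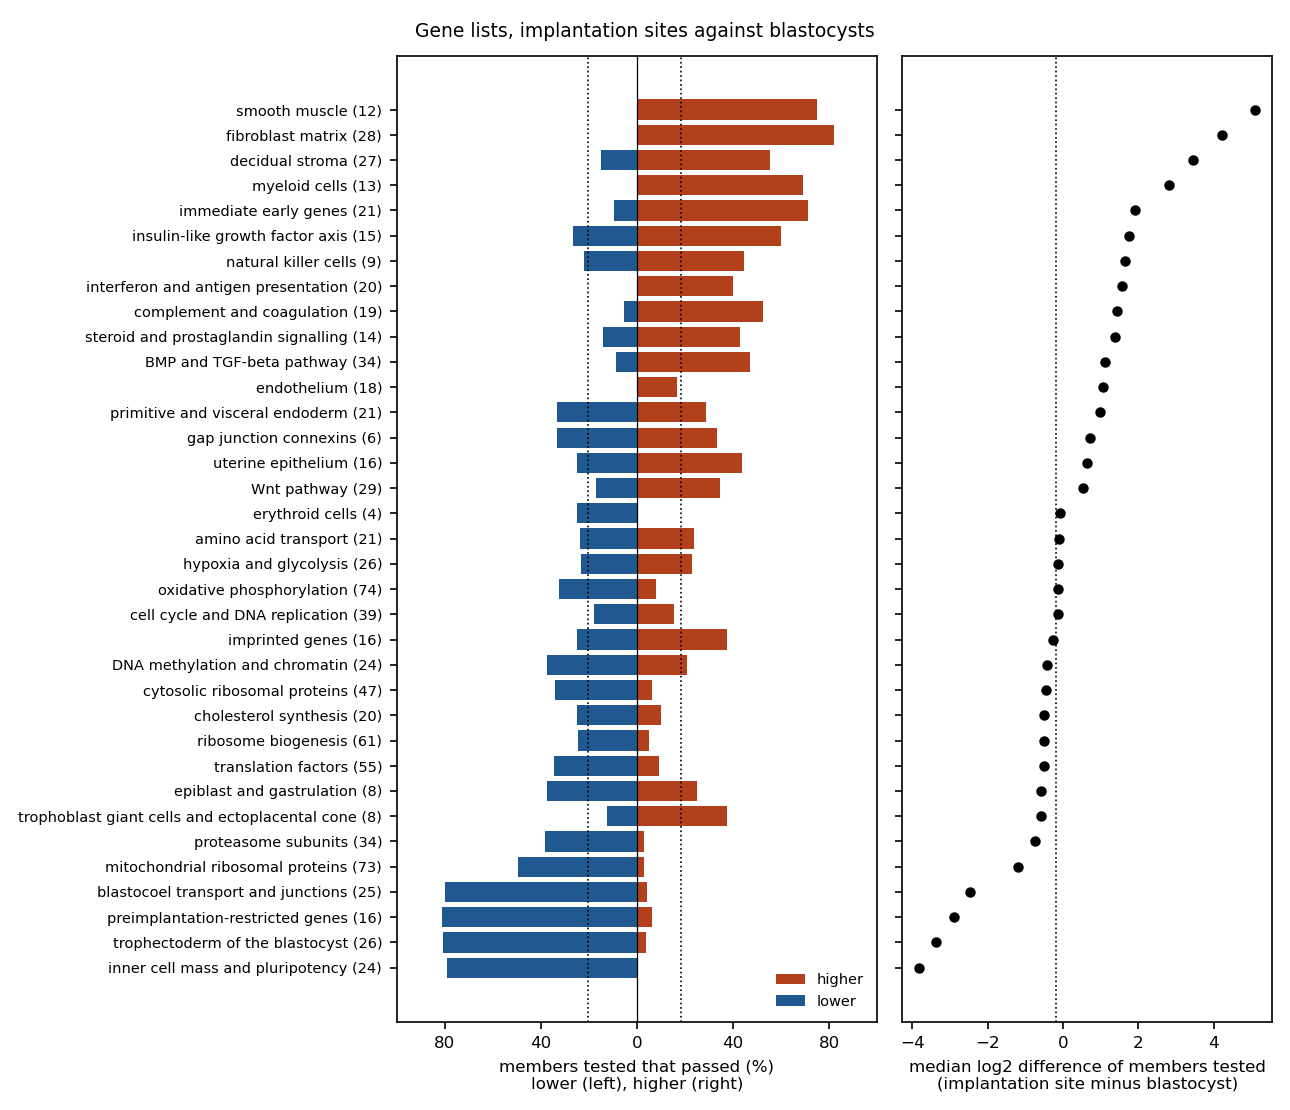
Left, percent of the tested members of each gene list (number tested in parentheses) that were higher (red, to the right) or lower (blue, to the left) at the implantation site by limma; dotted lines mark 18.3% and 20.5%, the shares over all genes. Right, the median log2 difference of the tested members, with the median of all genes (-0.18) dotted; the smooth muscle, matrix, decidual stroma and myeloid lists lie at the top, and inner cell mass, trophectoderm, preimplantation and junction lists at the bottom.

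Whether the stage difference depends on the labelled genotype was tested as an interaction. In limma, 0 genes had a stage difference that differed between KO and WT at an adjusted p under 0.05 (the smallest was 0.107), while 543 and 804 had an unadjusted p under 0.05 with a larger and a smaller value in KO. That test rests on the spread of the blastocyst pairs alone. The count depends on the setting: it was 6 after scaling to a common median, 4 in the upper 30% of probe sets, 10 without the first KO blastocyst array and 2180 with signals floored at background. Nrip2, a nuclear receptor cofactor, read 97109, 151578, 46081 and 18776 against 190 and 1258, with a stage difference of -9.32 within KO and -4.55 within WT on the log2 scale (limma interaction adjusted p = 0.121). For Gja1 the within-genotype values were 5.95 in KO and 4.23 in WT (limma interaction adjusted p = 0.744).

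**Figure D4:**
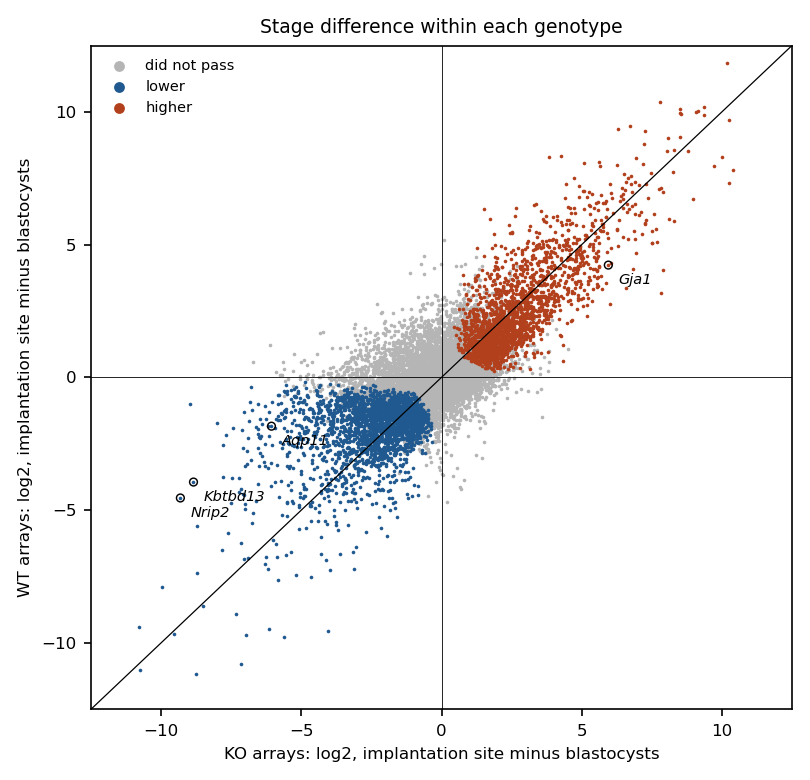
Log2 difference between implantation site and blastocysts within the KO arrays (x axis) and within the WT arrays (y axis) for each gene tested, with equal values on the diagonal line. Genes that passed as higher (red) or lower (blue) lie in the same quadrant for both genotypes, which their choice by the mean of both largely fixes, and circles mark Gja1, Nrip2, Kbtbd13 and Aqp11.

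Genes read by several probe sets showed how often probe sets of a gene differ. Among 1216 higher genes with other bright probe sets, all of these had the same sign in 669 (55.0%), and among 843 lower genes in 571 (67.7%). Counted by probe set, 67.4% of the others agreed in sign for the higher genes and 74.0% for the lower. Of the genes printed here, Pgr, Hand2 and Calcoco2 had no other bright probe set. For Rgs2, Tgm2, Krt8 and Dppa2 the others ran the same way, apart from 1 of 4 for Tgm2. Among the genes given with a bound, the dimmer stage was above background on 3 of 4 arrays for Snai2, Igf1 and Ifi35 and on 2 of 4 for Gja1 and Ccnd1. It was above on 1 of 4 arrays for Col1a1, Prss29, Plac8, Ttr, Zbed3, Smad1, Ccn1 and Dnmt3a, and on 1 of 2 for Vnn1, Sall4, Pou5f1, Khdc3, Ptges, Fzd10 and Sfmbt2. For the other genes with a bound no array of that stage was above background.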

How the data were processed

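RNA from blastocysts and implantation sites was hybridised to Affymetrix mouse arrays of 45101 probe sets. The deposited values are linear signal intensity per probe set; per the submitters' processing notes the tool was MAS5, with a version not given in the sources used here. In the deposited table the trimmed mean of the intensity is 500 on each array (2% trimmed), and no detection calls were used. Probe sets were named through GEO's platform annotation: 34945 matched 1 gene, 932 several and 9160 none.

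Signals were log2 transformed without a pseudocount. The upper 50% of probe sets by the mean of the stage means was kept (mean signal from 147.7), the brightest probe set stood for a gene, and limma 3.58.1 (R 4.3.3) fitted stage and genotype over the 6 arrays with an intensity trend and Benjamini-Hochberg adjustment over 11456 genes (3 residual degrees of freedom). A second fit added the interaction. The fit was tested on simulated data at 11456 genes: it called 2.99% of 2-fold, 59.7% of 4-fold and 87.9% of 8-fold changes and 18 of 11256 unchanged genes. There 67, 67 and 66 genes were changed by these folds, far fewer than passed in the data, and the noise was normal. The rates hold for that setting and do not give the power or error of the fit here.

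The comparison, the 35 gene lists and the naming rule were chosen with earlier results of these data known. The rule named, in each direction, the 15 genes that passed, did not overlap and changed most after signals were raised to background, and from each list up to 4 that passed and the 2 brightest that did not. A further 22 genes are examples chosen after their values were seen. Of 1114 listed genes 864 were tested, 187 were under the filter and the others had no single-gene probe set. In a fit without the filter 12 of the 187 were higher and 30 lower. Promoters came from RefSeq. 21 alternatives were run, covering normalization, pseudocount, filter, probe set choice, fit and each array left out.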

Additional observations from a re-analysis of the deposited data

Results flagged for a closer look

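A control probe set for the B1 repeat, a short interspersed element carried in many transcripts, lies outside the gene comparison and read higher on both implantation site arrays. It read 3043, 2580, 3905 and 3460 in blastocysts and 18953 and 10024 at the implantation site, a ratio of the geometric means of 4.295. The mature oocytes of the series read 8739 and 15882. Control probe sets named for the B2 repeat showed no such difference. One read 74115, 86299, 97780 and 61702 in blastocysts against 106450 and 87741. The other read 3371, 4969, 3705 and 3545 against 3250 and 2729. The cause of the B1 difference was not tested.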

How the results depend on the processing

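With 2095 genes higher and 2347 lower, the count of higher genes stayed within 1.5 times in the fits other than those within WT (1201) and without the KO implantation site array (1091), and that of lower genes in those other than within WT (1260), without the KO implantation site array (1330) and with signals floored at background (4578), where 30.9% of the calls were higher. Leaving out 1 array gave 1091 to 2249 higher and 1330 to 2549 lower. The interaction with genotype was called in 0 genes, in 6 with a common median, 4 in the upper 30% of probe sets, 2180 with the floor and 0 to 10 with 1 array left out (10 without the blastocyst KO 1); the cause was not tested. Of 146 named genes that passed, 138 kept their direction and 109 also their call in the fits that gave them a value; 108 of the 146 had one in every fit.

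Sign changes on the log2 scale came from probe sets without suffix in Marveld1 (-1.51), Tpm2 (-2.13), Laptm5 (-5.35), Dab2 (0.95), Atp5c1 (1.52), Cox6b1 (-2.05), Lss (0.34) and Slc38a1 (-0.98). They came from the mean of all probe sets in Laptm5 (-0.54), Dnmt3a (-0.091) and Gata2 (-0.084), and from the filter over 8 arrays in Dnmt3a (-0.42) and Slc38a1 (-0.98). The floor turned Prf1 (-1.11), Hba-a2 (-0.89) and Gja4 (-0.99).

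No paired analysis was possible because the implantation site labels carry no replicate number. The signal over background limits the comparison where a stage lies at background, and 1 implantation site array per genotype limits all of it.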

Other observations

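The calls were unevenly spread over chromosomes. On chromosome 3, 26.2% of the genes tested were higher at the implantation site and 18.3% lower. On chromosome 7 the shares were 12.7% and 22.5%, and on chromosome 17 they were 14.6% and 26.0%. Of 366 genes tested on the X chromosome 24.6% were higher and 21.3% lower, with a median log2 difference of 0.19, against -0.46 on chromosome 7 and -0.18 over all genes. These shares are descriptions without a test, and neighbouring genes are not independent.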
